A study of Mus musculus with 9 samples.

Results

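The miR-130 and miR-301 family was described in small RNA libraries from mouse milk fat. Its 4 members are the 3p arms mmu-miR-130a-3p, mmu-miR-130b-3p, mmu-miR-301a-3p and mmu-miR-301b-3p, chosen by name as a family that shares 1 seed, out of 1915 mature miRNA names in the deposited count table. All 9 dams were primiparous ICR (CD1) females with no transgene or treatment other than diet. The 5 control dams received a diet with 10% of energy as fat (3.85 kcal per g), and the 4 high-fat dams received one with 60% of energy as fat (5.24 kcal per g), with sucrose at 7% of energy in both. Feeding began at 4 weeks of age, 4 weeks before mating, and went on through pregnancy to lactation day 10, when milk was taken. Each library came from 1 dam, and dams of the same diet had shared cages in pairs before mating. The sources used here give neither the age at milking nor the cage of each dam.

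A miRNA guides a silencing complex to messenger RNAs through base pairing, mostly between its seed (bases 2 to 8) and the 3′ UTR of the target. The miR-130 and miR-301 family is known for repressing Pparg, which encodes the nuclear receptor that drives fat cell differentiation and lipid storage, and miRNAs of this family have also been tied to lipid transport genes. Milk fat globules are budded from mammary epithelial cells and carry some of their cytoplasm, so milk fat RNA is used as a window on the lactating gland. No messenger RNA was measured, so nothing below is a measure of target repression.

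The mature sequences are shown first because the shared seed is what makes these miRNAs a family. They are RefSeq entries (GRCm38.p6) written 5′ to 3′, with the seed in capitals.
mmu-miR-130a-3p: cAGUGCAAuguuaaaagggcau
mmu-miR-130b-3p: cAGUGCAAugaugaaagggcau
mmu-miR-301a-3p: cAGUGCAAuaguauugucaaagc
Of the 4 members, 3 matched a mature entry, and miR-301b-3p is named only. Counted from 1 at the 5′ end, miR-130a-3p and miR-130b-3p were identical at 20 of 22 bases and differed by U11A and A13G (miR-130a base, position, miR-130b base). Their first 10 bases were the same, so a read is told apart by bases that lie past the seed. The miR-301a-3p sequence shared its first 9 bases with both and then diverged, with 12 of 22 positions identical to miR-130a-3p. Of 1679 mature mouse names in the RefSeq table, 7 held the seed AGUGCAA. The 4 of these that are no members, miR-130c, miR-6341, miR-6389 and miR-721, had 0 counts in all 9 libraries, which allows at most 3.58 CPM (counts scaled to a library total of 1e6) in the smallest library and 0.770 in the largest, by counting error alone.

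The 4 hairpins lie at 3 places in the genome (GRCm38.p6). Mir130a lies on chromosome 2 (chr2:84741115-84741178, minus strand), between annotated genes. Mir301, the miR-301a hairpin, lies on chromosome 11 (chr11:87113004-87113089, plus strand), in an intron of the coding gene Ska2 and on its strand. Mir130b (chr16:17124061-17124142) and Mir301b (chr16:17124400-17124496) are neighbours on the minus strand of chromosome 16, 257 bases apart, both in an intron of 2610318N02Rik.

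The miR-148 and miR-19 families have seeds shifted by 1 base against this one, and their sequences are shown because they can match some of the same target bases. Capitals again mark bases 2 to 8.
mmu-miR-148a-3p: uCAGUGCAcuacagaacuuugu
mmu-miR-152-3p: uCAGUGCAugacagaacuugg
mmu-miR-19b-3p: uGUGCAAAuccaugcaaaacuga
The miR-148 and miR-152 seed shares the 6 letters AGUGCA with the miR-130 and miR-301 seed, and the miR-19 seed shares the 6 letters GUGCAA.

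Matches to the seed were looked for in the longest annotated 3′ UTR of each gene (GENCODE release M21), on the messenger strand only, as the letters TTGCACT. They are shown for Pparg and for the cholesterol exporter gene Abca1, with the 7 matched letters in capitals and written as DNA.
Pparg, UTR bases 42 to 48: ttctattgaTTGCACTattatt
Abca1, UTR bases 53 to 59: ggtcttcctTTGCACTgtgtca
Abca1, UTR bases 2962 to 2968: gatctatttTTGCACTggaata
The Pparg match lies at chr6:115490237-115490243 (plus strand) in a UTR of 204 bases. It is followed by an A, a letter often found there in functional sites. The letters TTGCACT occurred in 9.89% of 20979 UTRs of all lengths and in 1.29% of 1550 UTRs close to Pparg's in length. The Abca1 matches lie at chr4:53033884-53033890 and chr4:53030975-53030981 (minus strand), and both overlap a match to miR-148 (TGCACTG, in 12.6% of UTRs) and a match to miR-19 (TTTGCAC, in 11.4%). Among 2301 UTRs close to Abca1's in length, 19.6% held TTGCACT. The Pparg UTR also held 1 match to miR-27 (ACTGTGA, in 15.9% of UTRs), and no match to miR-148 or miR-19. The UTR of Ppargc1a, the gene of a Pparg coactivator, held no family match, where 24.6% of 1684 UTRs close to it in length did. The coding sequences of Pparg, Ppargc1a and Abca1 were searched as well. That of Pparg held 2 matches to miR-148, that of Ppargc1a held 1, and that of Abca1 held 0. None held a match to the family, miR-19 or miR-27. How often other coding sequences hold such matches was not counted. A match is a description of letters, not a proven site.

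The family was rare in milk fat. Its members summed to 508 of 18278339 counts over the 9 libraries, whose totals ran from 837817 to 3897109. Scaled to each library's total, the sum was 32.1, 26.5, 30.2, 30.6 and 19.1 CPM in control libraries 1 to 5, and 35.5, 15.4, 23.2 and 43.6 CPM in high-fat libraries 1 to 4. The high-fat values ran from below the lowest control to above the highest, so the diets overlapped fully. The means were 27.7 ± 5.22 CPM (SD, n = 5) and 29.4 ± 12.5 CPM (SD, n = 4), or 0.00277% and 0.00294% of all counts. Among the controls the sum varied about as much as counting error alone would give, with a chi-square per degree of freedom of 0.982, where 1 is counting error. For the single members in the controls the measure was 2.51 for miR-130a-3p, 2.0 for miR-130b-3p, 2.03 for miR-301a-3p and 1.10 for miR-301b-3p. Whether these values exceed counting error was not tested. Among the high-fat dams the measure was 15.5 for the sum, and 15.7, 4.12, 6.12 and 2.99 for these members in the same order. Whether the spread differs between the diets was not tested.

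**Figure D1:**
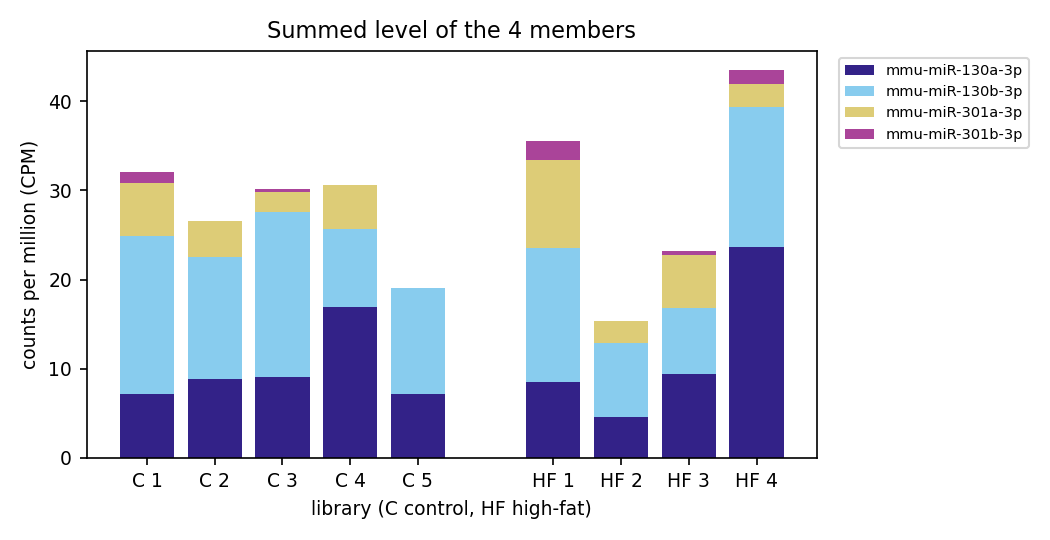
Stacked bars give the CPM of each of the 4 members in each library, control (C) and high-fat (HF). The controls sum to 19.1 to 32.1 CPM, and the high-fat libraries span 15.4 to 43.6 CPM on both sides of them.

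The miR-130 members made up most of the family. Of all family counts, miR-130b-3p held 46.1%, miR-130a-3p 36.0%, miR-301a-3p 15.6% and miR-301b-3p 2.36%. The order of the first pair did not hold in every library, since miR-130a-3p was the higher in control 4, high-fat 3 and high-fat 4. miR-301a-3p exceeded miR-130a-3p in high-fat 1 only, and miR-301b-3p stayed below miR-301a-3p in every library but control 5, where both were at 0. Levels of different miRNAs also depend on how well each is ligated and amplified, and that effect was not tested here.

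The most abundant member, miR-130b-3p, is encoded beside miR-301b. It had 30, 17, 51, 14 and 10 counts in the controls and 35, 32, 15 and 30 in the high-fat libraries. That is 17.8, 13.7, 18.5, 8.75 and 11.9 CPM against 14.98, 8.21, 7.42 and 15.7 CPM. The highest values were in controls 1 and 3, the lowest in high-fat 3 and 2, and the diets overlapped. The means were 14.1 ± 4.09 CPM (SD, n = 5) and 11.6 ± 4.38 CPM (SD, n = 4). The limma-voom log2 fold change of high-fat over control was -0.42 ± 0.35 (SE; 95% interval -1.21 to 0.36), with an unadjusted p of 0.259 and a Benjamini-Hochberg adjusted p of 0.683 over all 312 names tested. The difference did not exceed the spread between dams.

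The intergenic member, miR-130a-3p, had 12, 11, 25, 27 and 6 counts in the controls and 20, 18, 19 and 45 in the high-fat libraries. Its levels were 7.12, 8.84, 9.09, 16.9 and 7.16 CPM against 8.56, 4.62, 9.39 and 23.6 CPM. Both the highest and the lowest library were high-fat, number 4 and number 2, and control 4 stood above the other controls. The means were 9.82 ± 4.05 CPM (SD, n = 5) and 11.5 ± 8.31 CPM (SD, n = 4). Its limma-voom log2 fold change was -0.14 ± 0.50 (SE; 95% interval -1.25 to 0.97), with an unadjusted p of 0.780 and an adjusted p of 0.892. The linear means and the fitted change differ in sign, and the fitted value turned to 0.06 without control 4 and to 0.24 without high-fat 2. No direction could be given for this member.

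**Figure D2:**
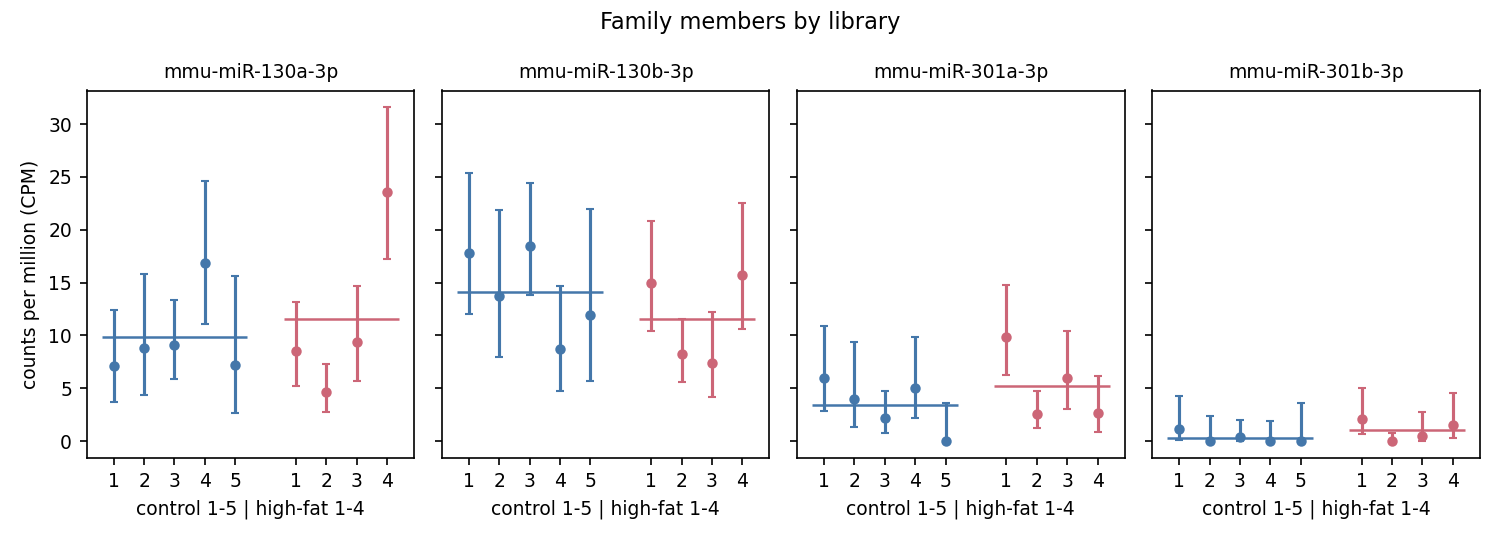
Each point is the CPM of 1 member in 1 library, with an exact 95% Poisson interval for counting error (at 0 counts, a bar up to 3 counts), and the lines are the means of the diets (controls left, high-fat right). miR-130a-3p is highest in high-fat 4 at 23.6 CPM, and miR-130b-3p overlaps between the diets. miR-301a-3p is highest in high-fat 1 at 9.85 CPM, and miR-301b-3p lies near the floor.

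The Ska2 intron member, miR-301a-3p, had 10, 5, 6, 8 and 0 counts in the controls and 23, 10, 12 and 5 in the high-fat libraries. Its levels were 5.94, 4.02, 2.18, 5.00 and 0 CPM against 9.85, 2.57, 5.93 and 2.62 CPM. The 0 in control 5, the shallowest library, allows up to 3.58 CPM. High-fat 1 was the highest library, and the others of both diets overlapped. The means were 3.43 ± 2.37 CPM (SD, n = 5) and 5.24 ± 3.45 CPM (SD, n = 4). It did not reach the filter of 5.25 CPM in at least 4 libraries and was not tested. Fitted without that filter, its limma-voom log2 fold change was 0.59 ± 0.69 (SE) with an adjusted p of 0.793.

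miR-301b-3p was at the limit of detection. It had 2, 0, 1, 0 and 0 counts in the controls and 5, 0, 1 and 3 in the high-fat libraries, 12 in all. Its means were 0.310 ± 0.515 CPM (SD, n = 5) and 1.05 ± 0.979 CPM (SD, n = 4). A count of 0 allows up to 2.41 CPM in control 2, 1.88 in control 4, 3.58 in control 5 and 0.770 in high-fat 2. The difference between the diets was not detectable at this depth.

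Leukocyte miRNAs varied widely between the high-fat libraries. The summed level of the 5 leukocyte markers was 356.3 to 761.5 CPM in the controls. It was 11418.2, 77.7, 2873.6 and 251.3 CPM in high-fat libraries 1 to 4. Each of these markers had counts when all 9 libraries were pooled, and single libraries were not checked for zeros. High-fat 1, the richest in these markers, was also the highest in miR-301a-3p and miR-301b-3p. High-fat 3, the next richest, had 5.93 and 0.494 CPM of these members. Control 1, with 382.9 CPM of leukocyte markers, had 5.94 and 1.19 CPM. An association was not tested. Without high-fat 1 and 3, the high-fat minus control difference in mean miR-301a-3p went from 1.81 to -0.83 CPM, and that of miR-301b-3p from 0.74 to 0.48 CPM. Without high-fat 1 alone they were 0.28 and 0.38 CPM, and without high-fat 3 alone 1.58 and 0.93 CPM. Without control 5, whose miR-301a-3p count was 0, they were 0.96 and 0.66 CPM. High-fat 4, the highest in miR-130a-3p, had leukocyte markers below every control, and it had the highest stromal markers of all 9 libraries, 25740.9 CPM. The controls did not follow that order. Control 1 had the most stromal markers among them (19156.4 CPM) and the least miR-130a-3p (7.12 CPM), and control 4 had 15495.0 and 16.9 CPM. Most of the stromal sum was miR-143-3p, which averaged 14560.3 CPM in the controls and 15151.4 in the high-fat libraries. The 2 endothelial markers summed to 6.43 to 22.0 CPM in the controls and 10.5 to 29.1 CPM in the high-fat libraries, the 3 erythrocyte markers to 10.7 to 110.5 and 13.3 to 504.3 CPM, and the 5 stromal markers to 10357.9 to 19156.4 CPM in the controls and 11659.9 to 12550.9 CPM in high-fat 1 to 3. The 7 epithelial miRNAs summed to 269028.9 to 326523.4 CPM in the controls and 288628.5 to 318209.1 CPM in the high-fat libraries. None of the tested markers passed an adjusted p of 0.05 in limma-voom, and the part of other cells in the family's levels was not tested beyond these values. In such mixed material, fewer cells of a type and less RNA per cell cannot be told apart.

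Across all miRNAs, 0 of 312 names tested (0%) passed an adjusted p of 0.05 in limma-voom, the lowest being 0.0996. At an unadjusted p under 0.05 there were 32 (10.3%), 14 higher and 18 lower on the high-fat diet. The diets did not overlap for 10 names (3.21%) in which every high-fat library exceeded every control, and for 5 names (1.60%) in which every one was lower. The 2 family members tested were in none of these groups, and the other pair also overlapped between the diets. The median log2 fold change of all names was 0.00, against -0.42 for miR-130b-3p and -0.14 for miR-130a-3p.

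**Figure D3:**
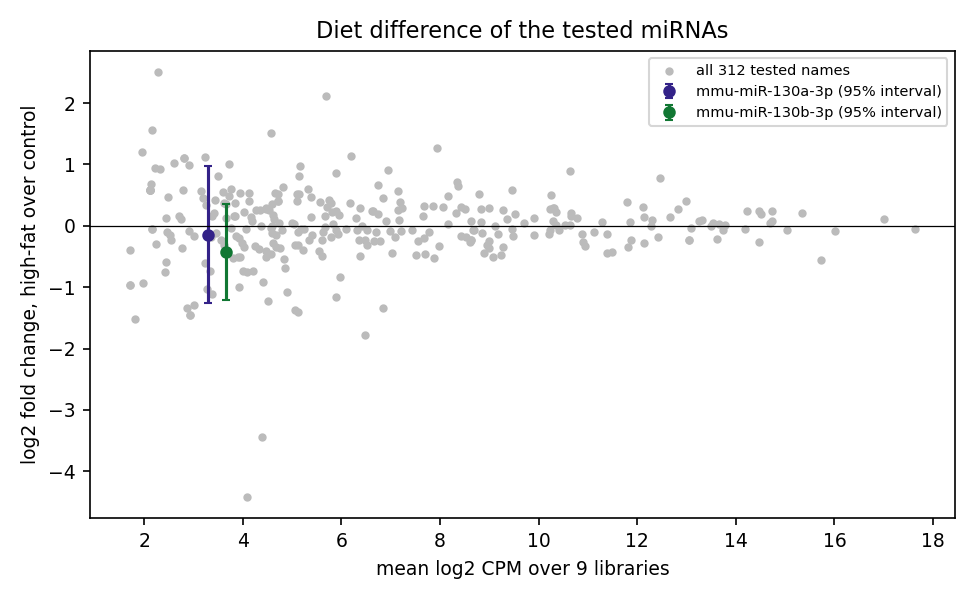
Each grey point is 1 of 312 tested miRNAs, with its mean log2 CPM on the x axis and its limma-voom log2 fold change (high-fat over control) on the y axis. miR-130a-3p and miR-130b-3p are drawn with 95% intervals, and both intervals include 0.

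To compare members within a library, 3 ratios of raw counts were tested by exact two-sided permutation of the 9 libraries. The log2 ratio of miR-130b-3p to miR-130a-3p, with 0.5 added to each count, was 1.29, 0.61, 1.01, -0.92 and 0.69 in the controls and 0.79, 0.81, -0.33 and -0.58 in the high-fat libraries. It averaged 0.54 ± 0.86 (SD, n = 5) and 0.17 ± 0.73 (SD, n = 4), with an exact permutation p of 0.524 (0.786 when adjusted over the 3 ratios). Its difference of -0.36 went from -0.73 without control 4 to -0.11 without high-fat 4, and was also moved by over 1.5 times by leaving out control 1 (-0.17), high-fat 1 (-0.57), high-fat 2 (-0.57) or high-fat 3 (-0.19). The log2 ratio of the chromosome 16 neighbours, miR-130b-3p to miR-301b-3p, averaged 4.62 ± 0.64 and 3.80 ± 1.51, and the exact permutation p was 0.302 (adjusted, 0.786). These ratios rest on 0 to 5 counts of miR-301b-3p in each library. In controls 2, 4 and 5 and in high-fat 2 it had 0 counts, so the ratio there is set by the added 0.5 and the depth, and the order of the libraries cannot be read. The difference of -0.82 became -0.53 with 1 added to each count, -1.56 without high-fat 2 (exact unadjusted p of 0.0357), -0.45 without high-fat 1, and -0.05 without the leukocyte-rich high-fat 1 and 3 (exact p of 0.952). The log2 ratio of miR-301b-3p to miR-301a-3p differed by -0.20 between the diets, with an exact permutation p of 0.881, and it turned positive without control 5 (0.38) or high-fat 2 (0.41). Control 5 had 0 counts of both members, so its log2 ratio of 0 comes from the added counts alone and says nothing of the 2 members. Without it the exact permutation p was 0.657.

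Each hairpin also yields a 5p arm, and the arms differed in how much was seen. miR-301a-5p had 36 of the 115 counts of its hairpin, or 31.3% (95% Wilson interval 23.5 to 40.3), with 4, 0, 5, 5 and 0 counts in the controls and 11, 4, 6 and 1 in the high-fat libraries. miR-130b-5p had 42 of 276 counts, or 15.2% (11.5 to 19.9), with 3, 5, 10, 9 and 0 against 10, 1, 4 and 0. miR-130a-5p had 1 of 184 counts, or 0.543% (0.0960 to 3.01), in control 1. miR-301b-5p had 1 of 13 counts, also in control 1. The intervals pool the libraries and cover counting error only. By diet, the miR-301a 5p share was 32.6% in the controls and 30.6% in the high-fat libraries, and the miR-130b 5p share was 18.1% and 11.8%. The arm balance was tested for hairpins whose arms both passed the filter, 83 in all, and none was of this family, so the diet difference in its arms was not tested.

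The families with overlapping seeds were far more abundant. miR-148a-3p, miR-148b-3p and miR-152-3p together held 13.4% ± 1.91 (SD, n = 5) of counts in the controls and 14.4% ± 0.87 (SD, n = 4) in the high-fat libraries. Within each library that was 3555.4 to 9377.7 times the miR-130 and miR-301 sum, with a median of 4506.4. miR-19a-3p and miR-19b-3p held 0.0611% ± 0.00801 and 0.0662% ± 0.0254, a median of 22.1 times the family. None of these 5 miRNAs passed an adjusted p of 0.05 in limma-voom. Among other miRNAs known to target Pparg, miR-27a-3p averaged 13952.6 CPM in the controls and 13361.5 in the high-fat libraries, and miR-27b-3p 19128.3 and 18432.8.

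**Figure D4:**
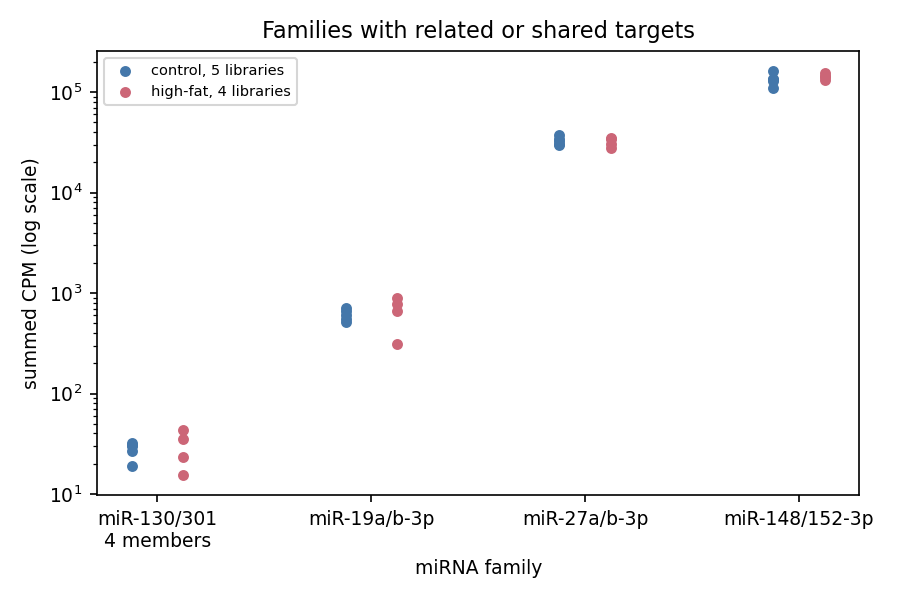
Each point is the summed CPM of a family in 1 library, on a log scale, for 5 control and 4 high-fat libraries. The miR-130 and miR-301 sum (15.4 to 43.6 CPM) lies below the miR-19, miR-27 and miR-148 families in every library.

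Of 13 miRNAs listed as restraining fat cell formation (other than the family), 11 were detected and 10 tested, and 0 passed an adjusted p of 0.05 in limma-voom. At an unadjusted p under 0.05 there were 2 of 10, where 10.3% of all tested names passed. Of these, miR-15a-5p was higher on the high-fat diet, at 280.8 ± 93.0 CPM in the controls and 421.1 ± 17.1 CPM in the high-fat libraries (mean ± SD). Its limma-voom log2 fold change was 0.65 ± 0.23 (SE), with an adjusted p of 0.385. miR-222-3p, which targets regulators of the cell cycle, was lower, at 723.4 ± 204.6 and 506.7 ± 89.2 CPM, with a limma-voom log2 fold change of -0.48 ± 0.20 (SE) and an adjusted p of 0.436. The list's median log2 fold change was -0.06, and 4 of 10 were above 0. Of 19 miRNAs listed as favouring fat cell formation, 18 were tested and 0 passed the adjusted threshold. At the unadjusted one, which 10.3% of all tested names passed, 1 of 18 did: miR-26b-5p was higher, at 7237.8 ± 1320.4 and 9484.6 ± 723.6 CPM, with a limma-voom log2 fold change of 0.41 ± 0.15 (SE) and an adjusted p of 0.389. The median was 0.05, and 10 of 18 were above 0, where 50.6% of all tested names were. The most abundant of this list was miR-146b-5p, at 208375.4 CPM in the controls and 201337.7 in the high-fat libraries.

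The miRNAs whose levels ran most like the family's were low in abundance as well. The Pearson r over the 9 libraries was taken on log2 CPM with trimmed mean of M values scaling. Against the summed family it was 0.952 for miR-582-5p (6.67 to 39.9 CPM), 0.881 for miR-30c-1-3p (0.257 to 9.44 CPM) and 0.877 for miR-669p-5p (1.19 to 8.99 CPM). The 0.257 CPM of miR-30c-1-3p was 1 read in high-fat 2, which was also the lowest library of the family sum. miR-669a-5p had the same fitted diet values as miR-669p-5p, so the last of these places may be a tie. Other tested names also shared all fitted values, such as miR-199a-3p and miR-199b-3p. The 312 tested names are therefore not all separate measurements. The lowest r was -0.892, with miR-210-5p (5.77 to 26.4 CPM). The median r over 310 names was 0.07. These are descriptions of names picked from 310 by their r, over 9 points that share library totals, and all were tested for diet with adjusted p of 0.719 or more in limma-voom.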

How the data were processed

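Milk fat small RNA was measured in 9 libraries. The authors deposited 1 table of whole-number read counts, 2059 rows for 1915 mature names, with comma separators in 833 cells. The submitters' processing notes name cutadapt 1.9.1 and the build GRCm38. The sources used here name no aligner, counting rule or handling of PCR copies, and counts are taken as reads. Because of the commas the columns were recorded under the unit "other", and no negative binomial count model was run. Commas were removed and the highest row per name and library was kept (each member has 1 row). The 312 names with 5.25 CPM (10 counts at the median library) in at least 4 libraries and 15 counts in all were fitted with limma-voom (limma 3.58.1, R 4.3.3) and trimmed mean of M values scaling. Permutation tests went through every split of the libraries in code written for them, and the Poisson and Wilson intervals used scipy 1.17.1. Only the limma-voom fit was tried on simulated counts, and the other steps were not tested in this way. No library repeated another: same-diet pairs differed by a chi-square per degree of freedom of at least 50.2.

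Named miRNAs were the members and their 5p arms, names with the same seed, the 3 highest and 1 lowest correlated with the family, and list members at an unadjusted p under 0.05 or of high abundance. The members and lists were chosen with earlier results of these data known. Intervals and floors cover counting error only. P-values measure the spread between dams, with cage not known. Alternatives were other scalings, filters, weights, row sums and left-out libraries. A further target gene looked at is not reported here.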

Additional observations from a re-analysis of the deposited data

Results flagged for a closer look

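In a search of 16 groups of values (the 4 members, their sum and 3 ratios, in each diet), 1 library stood far from the others of its diet. miR-130a-3p was 16.9 CPM in control 4, against 7.12 to 9.09 CPM in the other controls, a gap of 0.799 of the whole range. Chance flags about 1 in 20 such groups.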

How the results depend on the processing

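miR-130b-3p stayed lower on the high-fat diet under all 18 alternatives (log2 fold change -0.59 to -0.27, limma-voom or limma-trend adjusted p 0.603 to 0.894). miR-130a-3p turned positive in limma-trend on log2(CPM + 1) (0.069) and with a replicate block (0.077), and leaving out 1 library gave -0.53 to 0.24. It could not be fitted with at least 10 counts in every library, which it did not have. Its adjusted p was 0.682 to 0.986. The count of names past an adjusted p of 0.05 went from 0 to 4 with no filter, 1 with at least 10 counts in every library, 2 in limma-trend, 2 with library quality weights and 3 with the replicate block, and to 0 to 4 on leaving out 1 library (4 without control 5). No family member was among them. Leaving out 1 library gave -0.84 to 0.41 for the log2 ratio of miR-301b-3p to miR-301a-3p. It gave -1.56 to -0.45 for miR-130b-3p to miR-301b-3p, and -0.73 to -0.11 for miR-130b-3p to miR-130a-3p. For the ratios, the replicate block leaves out control 5, which has no partner. Its 0.38 for miR-301b-3p to miR-301a-3p is thus the value without control 5, not a separate result. The cause of these changes was not tested.

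The correlation of same-numbered deviations was 0.06, -0.08, 0.20 and -0.16. Differently numbered dams were not compared, so these values cannot decide whether the replicate numbers pair the dams. The family's summed difference of 1.73 CPM ran from -2.97 to 6.41 CPM on leaving out 1 library. No alternative for its arm balance could be computed, since no arm pair passed the filter. Depth limits the miR-301 members most, at 79 and 12 counts in all.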
